A study of Arabidopsis thaliana with 8 samples.

Results

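The early response of Arabidopsis thaliana roots to phosphate (Pi) withdrawal, as far as it was shared by a mutant and its wild type, was measured as the effect of the medium averaged over both genotypes. All 8 arrays of the series entered it: 4 from roots in Pi-free medium against 4 from roots in control medium. There were 2 arrays in each of 4 groups: per1 without Pi, per1 on control medium, Col-0 without Pi and Col-0 on control medium. All plants carried the Col-0 background, grew for 10 days on agar with control medium and then spent 10 h on Pi-free or control medium, so the controls were transferred as well. The per1 mutant is known for failing to lengthen its root hairs when Pi is short, and its allele is not given in the labels. The labels call the arrays of a group biological replicates without saying whether separate cultures were used, so the p-values measure the spread between these samples. RNA came from whole roots, in which fewer cells of a type and less RNA per cell cannot be told apart.

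The titles and source names set the medium of each array. The free-text descriptions mention iron instead and do not follow the media: 3 of the 8 arrays, 2 of them Pi-free and 1 control, are described as iron deficient. The titles were used here.

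Plants that run short of Pi activate a set of genes under the transcription factor PHR1 and its inhibitors, the SPX proteins, which sense the Pi status of the cell. The products include Pi transporters, secreted phosphatases and enzymes that replace phospholipids in membranes. Roots also respond locally to low Pi, through changes in cell walls, reactive oxygen and calcium signals, and in many plants through longer root hairs.

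Signals are linear probeset intensities. Differences are given as log2(signal + 16) in Pi-free minus control medium, which understates the change of weak signals. A probeset was called where the adjusted p of limma (Benjamini-Hochberg, over all probesets) was under 0.05. Array medians lay between 186.2 and 197.1. The Spearman correlation between the arrays of a group was 0.975 to 0.982. The 3'/5' signal ratio of ubiquitin was 3.31 to 3.79 on Pi-free arrays and 3.48 to 4.67 on control arrays. That of actin was 37.8 to 49.8 on Pi-free arrays and 23.9 to 52.1 on control arrays, and that of GAPDH was 2.35 to 3.72 on Pi-free arrays and 2.23 to 3.19 on control arrays, so the ranges overlapped for all 3. These are ratios of the array's own control probesets. The 3' actin and both ubiquitin ones carry the suffix of probes shared by a gene family, so their ratios may not compare the ends of 1 transcript. Of 16 root markers, 3 had a probeset with 1 named gene (EXPA7, EXPA18 and the root hair peroxidase AT4G26010), and all 3 mark root hairs. Their summed signal was 4277 and 4328 in per1 without Pi, below the 5868 and 6873 of per1 on control medium. It was 6162 and 6331 in Col-0 without Pi, against 5919 and 7060 in Col-0 on control medium. Of 10 green shoot markers, 3 were measured (LHCB4.1, PRK and RCA), with sums of 324 to 355 in per1 without Pi, 307 to 382 in per1 on control medium, 505 to 580 in Col-0 without Pi and 565 to 695 in Col-0 on control medium. None of these 6 markers was called, and none was at 0 on any array. The part of root hair or shoot RNA and of RNA quality in the results was not tested.

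Averaged over both genotypes, 29 of 22746 probesets were called, which is 0.127% of those tested. Of these, 22 were higher in Pi-free medium (0.0967%) and 7 were lower (0.0308%). Only 8 of the 29 matched a single named gene, 5 of them higher and 3 lower, while 20 had no gene in the annotation used and 1 matched several genes. All 29 estimates had the same sign in per1 and in Col-0. In all 29 the 2 Pi-free arrays lay beyond the 2 control arrays within each genotype, and always in the same direction. Over all probesets such a separation was seen for 6.61%, with 3.71% in the higher and 2.91% in the lower direction. At an unadjusted p under 0.05 in limma, 6.30% of all probesets differed. The calls used the same values, so this separation describes them and does not add support. The change was between 0.53 and 2.58 for the higher probesets, with a median of 0.97, and between -0.63 and -0.99 for the lower ones, with a median of -0.74. The calls rest on few arrays. Their number was 2 without the per1 Pi-free array of replicate 2, 7 without that of replicate 1, 10 and 6 without the per1 control arrays of replicates 1 and 2, 8 without the Col-0 Pi-free array of replicate 2, and 10 and 9 without the Col-0 control arrays of replicates 1 and 2. It was 27 without the Col-0 Pi-free array of replicate 1, of which 18 were among the 29. Without an intensity trend in the variance, 2 of the 29 stayed called.

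Among the higher genes, the one with the most equal response was AT5G19090, which encodes a protein with a heavy-metal-associated domain. Its signal was 901 and 823 on the per1 Pi-free arrays, against 585.7 and 499 on the per1 control arrays. In Col-0 it was 877 and 774 in Pi-free medium, against 512 and 554 in control medium. Every Pi-free array lay above every control array of both genotypes. The change was 0.66 in per1 and 0.61 in Col-0, with a mean of 0.64 ± 0.09 (SE, adjusted p from limma 0.037). The per1 response minus the Col-0 response was 0.04, with a 95% interval of -0.37 to 0.45.

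AT2G46600 encodes KIC, a small EF-hand calcium sensor known to bind a kinesin that is regulated by calmodulin. Its signal was 3149 and 2954 on the per1 Pi-free arrays, against 2292 and 2433 on the per1 control arrays. The Col-0 values were 3520 and 4134 in Pi-free medium, against 2009 and 1777 in control medium. Again all 4 Pi-free arrays lay above all 4 control arrays, with a smaller step in per1. The mean change was 0.69 ± 0.08 (SE, adjusted p from limma 0.015), made of 0.37 in per1 and 1.01 in Col-0. The difference between these responses was -0.64, with an unadjusted p of 0.0028 and an adjusted p of 0.91 in limma, so it did not pass.

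AT2G32190 encodes a short protein with a cysteine-rich transmembrane module, a family linked to stress tolerance. It had 318 and 286 on the per1 Pi-free arrays, against 234 and 203 on the per1 control arrays. In Col-0 it had 361 and 422 in Pi-free medium, against 143.3 and 136 in control medium. The Pi-free arrays of either genotype were above every control array. The mean change was 0.91 ± 0.12 (SE, adjusted p from limma 0.026), from 0.44 in per1 and 1.38 in Col-0. The per1 response minus the Col-0 response was -0.94. It had an unadjusted p of 0.0031 and an adjusted p of 0.91 in limma, and did not pass.

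AT3G56880 encodes a protein with a VQ motif, by which such proteins bind WRKY transcription factors. Its signal was 983 and 1003 on the per1 Pi-free arrays, against 710.1 and 764 on the per1 control arrays. The Col-0 signals were 1316 and 1694 in Pi-free medium, against 851 and 729 in control medium. The mean change was 0.67 ± 0.10 (SE, adjusted p from limma 0.044), with 0.42 in per1 and 0.91 in Col-0. The per1 response minus the Col-0 response was -0.49. It had an unadjusted p of 0.033 and an adjusted p of 0.92 in limma, and did not pass. This gene lay closest to the threshold. The next 3 probesets, just outside it, were the unnamed 257823_at at 0.70 (adjusted p from limma 0.052), AT5G48430 at -0.99 (0.052) and AT5G27920 at 0.52 (0.056).

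AT4G38410 is a member of the dehydrin family, whose proteins protect cells against water loss, and its change was seen mainly in Col-0. In per1 its signal was 646 and 769 in Pi-free medium, against 579 and 620.2 in control medium. In Col-0 it was 1856 and 2485 in Pi-free medium, against 421 and 363 in control medium. The per1 arrays separated by a narrow margin. The change was 0.23 in per1, with an adjusted p from limma of 1, and 2.41 in Col-0. The difference between the responses was -2.18 ± 0.22 (SE) and passed, with an adjusted p of 0.030 in limma. The mean of both, 1.32 ± 0.11 (SE, adjusted p from limma 0.0027), lies between 2 unequal responses.

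The 3 named genes that fell act at the cell surface or have no known role. AT5G64100 encodes a class III peroxidase, known as PRX69, one of a large family of secreted enzymes that cross-link or loosen cell walls and turn over hydrogen peroxide. Its signal was 2910 and 3356 on the per1 Pi-free arrays, against 4247 and 5309 on the per1 control arrays. In Col-0 it was 2827 and 2353 in Pi-free medium, against 4396 and 5173 in control medium. All 4 Pi-free arrays were below all 4 control arrays. The mean change was -0.74 ± 0.10 (SE, adjusted p from limma 0.033), with -0.60 in per1 and -0.88 in Col-0, and the difference of 0.28 between these had a 95% interval of -0.19 to 0.75.

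AT4G30320 encodes a secreted protein of the CAP family, to which the pathogenesis-related protein PR-1 belongs. It had 429 and 408 on the per1 Pi-free arrays, against 632 and 696.5 on the per1 control arrays. The Col-0 arrays gave 544 and 508.5 in Pi-free medium, against 868 and 764 in control medium. The step was alike in size, -0.65 in per1 and -0.62 in Col-0, with a mean of -0.63 ± 0.09 (SE, adjusted p from limma 0.032). The difference between the responses was -0.03, with a 95% interval of -0.42 to 0.36. AT2G37750, which has no known function, had 915 and 737 on the per1 Pi-free arrays, against 1161 and 1112 on the per1 control arrays. Its Col-0 signals were 826 and 775 in Pi-free medium, against 1337 and 1481 in control medium. It changed by -0.63 ± 0.09 on average (SE, adjusted p from limma 0.033), with -0.46 in per1 and -0.80 in Col-0.

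**Figure D1:**
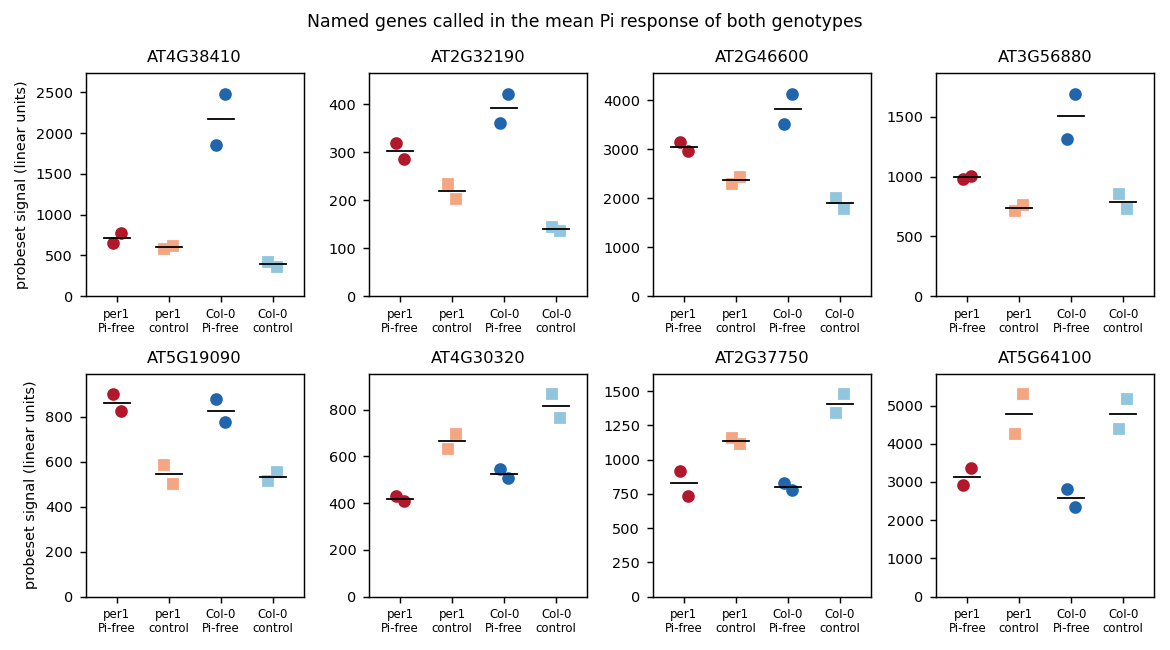
Linear probeset signals of the 8 named genes called in the mean Pi response of both genotypes, by group. Points are single arrays (2 per group) and black lines are group means. The Pi-free arrays lie above the control arrays of the same genotype in 5 genes and below them in 3, and for AT4G38410 the per1 values differ little while the Col-0 Pi-free values are 1856 and 2485.

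Left out 1 array at a time, AT4G38410 kept its call in 7 of 8 fits, all but the one without the per1 Pi-free array of replicate 2. AT2G46600 and AT3G56880 kept it in 1 of 8, the fit without the Col-0 Pi-free array of replicate 1. AT2G32190, AT5G19090, AT5G64100, AT4G30320 and AT2G37750 kept it in 0 of 8. Under the 8 other alternatives AT4G30320 kept it in 7, AT2G37750 in 5, AT3G56880 in 4 and the remaining named genes in 6. All lost it without an intensity trend in the variance. AT4G38410, AT2G46600, AT2G32190, AT2G37750 and AT3G56880 also lost it without the interaction term. The directions of all named genes stayed the same in each of these fits. Over all alternatives the mean change lay between 0.58 and 0.69 for AT5G19090 and between -0.82 and -0.66 for AT5G64100. Within replicate numbers 1 and 2 the mean change was 0.68 and 0.59 for AT5G19090, 0.63 and 0.74 for AT2G46600, -0.59 and -0.90 for AT5G64100, and -0.60 and -0.66 for AT4G30320.

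The largest mean changes were in probesets with no gene in the annotation, given here by their array identifiers. 246071_at had 1389 and 1708 on the per1 Pi-free arrays, against 347 and 262 on the per1 control arrays. The Col-0 values were 1354 and 1588 in Pi-free medium, against 302 and 269 in control medium. It rose by 2.29 in per1 and 2.30 in Col-0 (limma, adjusted p of the mean 4.5e-05), and it kept its call in 8 of 8 fits without 1 array and under all 8 other alternatives. 267083_at had 1580 and 1606 on the per1 Pi-free arrays, against 692 and 626 on the per1 control arrays. In Col-0 it had 2042 and 2345 in Pi-free medium, against 147.9 and 114 in control medium. It rose by 3.92 in Col-0, while its change of 1.25 in per1 alone missed the threshold (adjusted p from limma 0.056). The difference of -2.66 between these responses passed the test (adjusted p from limma 0.0029). Of the 29, it was also the only one whose level differed between the genotypes when averaged over the media, at 0.88 higher in per1 (adjusted p from limma 0.0074), where 0.818% of all probesets passed that comparison. That comparison was added after the data were seen.

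The other 2 of the 4 largest unnamed probesets that rose had estimates above 1 in both genotypes. 258158_at had 246 and 342 on the per1 Pi-free arrays, against 86.5 and 70.3 on the per1 control arrays, and 455 and 401 on the Col-0 Pi-free arrays, against 126 and 170.0 on the Col-0 control arrays. Its mean change was 1.58 ± 0.16 (SE). 257481_at stood at 1.24 in per1 and 1.67 in Col-0. Among the unnamed probesets that fell, 245296_at had 163 and 143 on the per1 Pi-free arrays, against 394 and 438 on the per1 control arrays, and 171.2 and 159 on the Col-0 Pi-free arrays, against 236 and 289.8 on the Col-0 control arrays. Its mean change of -0.99 ± 0.13 (SE) was the lowest among the 29, with estimates of -1.35 in per1 and -0.62 in Col-0 whose difference did not pass (adjusted p from limma 0.92). 262238_at, 247586_at and 247954_at changed by -0.88, -0.76 and -0.66.

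Whether the responses were of equal size was tested over all probesets by the interaction. It uses the same spread per probeset as the test that chose the 29, so a small spread favours both. Of the 29, 2 passed it after adjustment over all probesets (267083_at and AT4G38410), and these were the 2 that passed among all 22746 (0.00879%). At an unadjusted p under 0.05 in limma there were 10 of the 29 (34.5%), with 5.30% of all probesets. Nothing is read from that count, since the choice of the 29 uses the same spread. Of the 29, the change was larger in Col-0 for 23 and larger in per1 for 6. The share of all probesets with a larger change in Col-0 was not counted, so whether this is particular to the 29 was not tested. By another measure, 1747 of all 22746 probesets differed in Col-0 and 1016 in per1 at an unadjusted p under 0.05 in limma. Among the 29, the higher probesets had a median change of 0.76 in per1 and 1.18 in Col-0. The lower ones had -0.60 in per1 and -0.80 in Col-0. Called singly, 1 of the 29 passed in per1 (246071_at) and 12 passed in Col-0, where 0.00440% and 0.0615% of all probesets did. The 29 were chosen on the mean of these same responses, so these counts describe them and add no support.

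**Figure D2:**
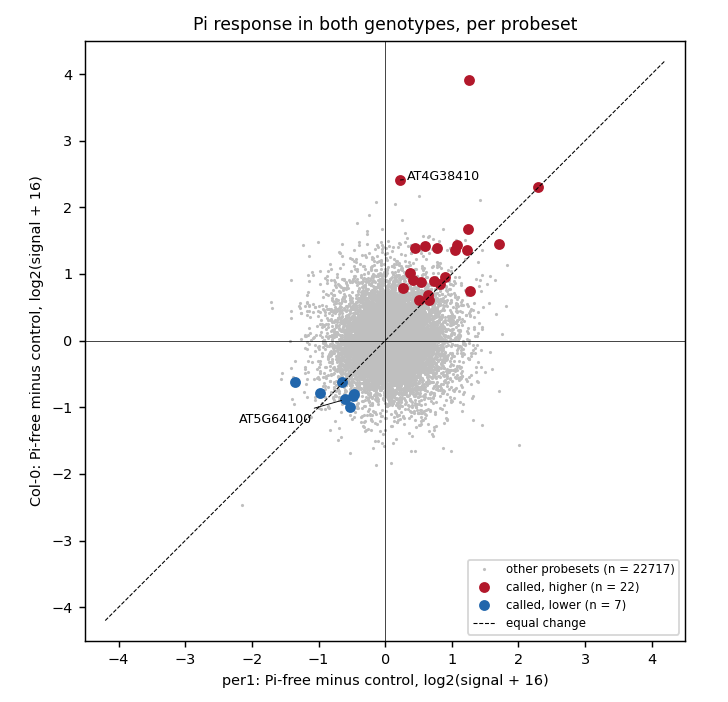
Pi response of each probeset in per1 (x axis) against that in Col-0 (y axis), both as Pi-free minus control on the log2(signal + 16) scale. Grey points are the probesets that were not called, red points the 22 called as higher and blue points the 7 called as lower in the mean of both genotypes; the called points lie in the upper right and lower left, most of them above the line of equal change among the higher ones.

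Because the per1 and Col-0 responses come from separate arrays, a set chosen in one genotype could be read in the other. The mean signal compared with the median below was taken over all arrays, including those of the genotype read. The calls in the mean of both genotypes average these same responses, so the counts below describe them and add no support. Over all 22746 probesets the changes in per1 and Col-0 had a Pearson correlation of 0.04 and a Spearman correlation of 0.02, and of 0.15 and 0.03 over the 11373 with a mean above the median. These are descriptions across probesets of the same arrays. The largest changes in one genotype mostly had the same sign in the other. Of the 22 probesets with a change of at least 1 in Col-0 and a mean above the median, 22 were also higher in Pi-free medium in per1, with a median of 0.53, where 49.6% of all such probesets were above 0 in per1. Of 9 with a change of at least 1 in per1, 8 were higher in Col-0, with a median of 1.36. With a threshold of 0.5, 142 of 197 chosen in Col-0 were higher in per1 (72.1%), and 66 of 101 chosen in per1 were higher in Col-0 (65.3%, with 48.6% of all above 0). In the lower direction, 2 of 2 probesets at or under -1 in per1 were below 0 in Col-0, and 4 of 4 at or under -1 in Col-0 were below 0 in per1. At the threshold of -0.5 the shares were unlike. Of 54 probesets at or under -0.5 in per1, 44 were below 0 in Col-0 (81.5%, with 51.4% of all). Of 144 at or under -0.5 in Col-0, 67 were below 0 in per1 (46.5%, with 50.4% of all). Among the 14 probesets called in Col-0, 13 had the same sign in per1. The exception was the beta-glucosidase gene BGLU25, at -0.19 in per1 and 0.96 in Col-0. Of the 14, 12 were also called in the mean of both genotypes.

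The named genes next in order of p were separated in the same direction within both genotypes and did not pass the test. The 15 higher ones had adjusted p from limma of 0.056 to 0.23 and the 15 lower ones of 0.052 to 0.20. None of the 30 had an interaction that passed in limma. At an unadjusted p under 0.05 there were 7, with 5.30% of all probesets, a count from which nothing is read since the ordering uses the same spread. Some of the higher ones encode calcium-binding or regulatory proteins. AT4G27280, an EF-hand protein related to KIC, had 515 and 457.5 on the per1 Pi-free arrays, against 379 and 341.5 on the per1 control arrays. The Col-0 signals were 514 and 729.7 in Pi-free medium, against 287 and 243 in control medium, and the mean change was 0.79 ± 0.13 (SE). AT2G41410, known as the calmodulin-like protein CML35, stood at 0.37, and AT1G23140, which has a C2 domain that binds lipids in a calcium-dependent way, at 0.56. STZ, a zinc finger repressor of stress responses also known as ZAT10, stood at 0.77, with 0.36 in per1 and 1.18 in Col-0. The F-box gene AT5G27920 stood at 0.52 and the RING-type gene AT4G33940 at 0.68.

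Other genes among these 15 encode membrane or secreted proteins. TET8, a tetraspanin found on secreted vesicles, had 2722 and 2096 on the per1 Pi-free arrays, against 1839 and 1653 on the per1 control arrays. In Col-0 it had 2437 and 2738 in Pi-free medium, against 1779 and 1897 in control medium. Its steps were of like size, 0.45 in per1 and 0.49 in Col-0. AT2G43535, which encodes a defensin-like peptide, also had near-equal estimates, 0.44 in per1 and 0.41 in Col-0. AT1G69840, a band 7 protein of the hypersensitive induced reaction family, stood at 0.17 in per1 and 1.19 in Col-0. The lectin-domain gene AT5G18470 stood at 0.64 and the aspartyl protease gene AT5G19120 at 0.57. AT1G19020, AT2G18690, AT1G25275 and AT5G64250 stood between 0.35 and 0.67.

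The 15 lower genes include 2 further class III peroxidases. AT5G64120, known as PRX71, had 369.6 and 492 on the per1 Pi-free arrays, against 674 and 983 on the per1 control arrays. In Col-0 it had 427 and 634 in Pi-free medium, against 912 and 1268 in control medium. The mean change was -0.97 ± 0.17 (SE), with -0.91 in per1 and -1.02 in Col-0. The other, AT3G01190 (PRX27), stood at -0.43 ± 0.07 (SE). AT4G25250, an inhibitor of pectin methylesterase, the enzyme that changes pectin's charge, stood at -0.86. The aspartyl protease gene AT5G48430 stood at -0.99 ± 0.15 (SE), with -0.96 in per1 and -1.02 in Col-0, and its level in per1 minus that in Col-0, averaged over the media, was -1.15 (adjusted p from limma 0.012).

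AT5G06270 (GIR1), known to interact with GLABRA2, a repressor of root hair fate, had 644 and 630.1 on the per1 Pi-free arrays, against 872 and 847 on the per1 control arrays. The Col-0 arrays gave 681 and 598 in Pi-free medium, against 842 and 966 in control medium. It stood at -0.42 in per1 and -0.49 in Col-0, and the Pi-free arrays of both genotypes lay below all control arrays. PUB22, a U-box ubiquitin ligase known to dampen immune signalling, stood at -0.61, and the receptor-like kinase gene AT1G51790 at -0.55. The 2 PLAC8-domain genes AT3G18450 and AT1G52200 stood at -0.80 and -0.56, and the 2 genes for cysteine- and histidine-rich C1 domains, AT2G44380 and AT5G43520, at -0.59 and -0.88. AT1G33700, which encodes a glucosylceramidase-like enzyme, stood at -0.55. AT2G30930, AT3G56360 and AT2G25640 stood between -0.48 and -0.93.

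**Figure D3:**
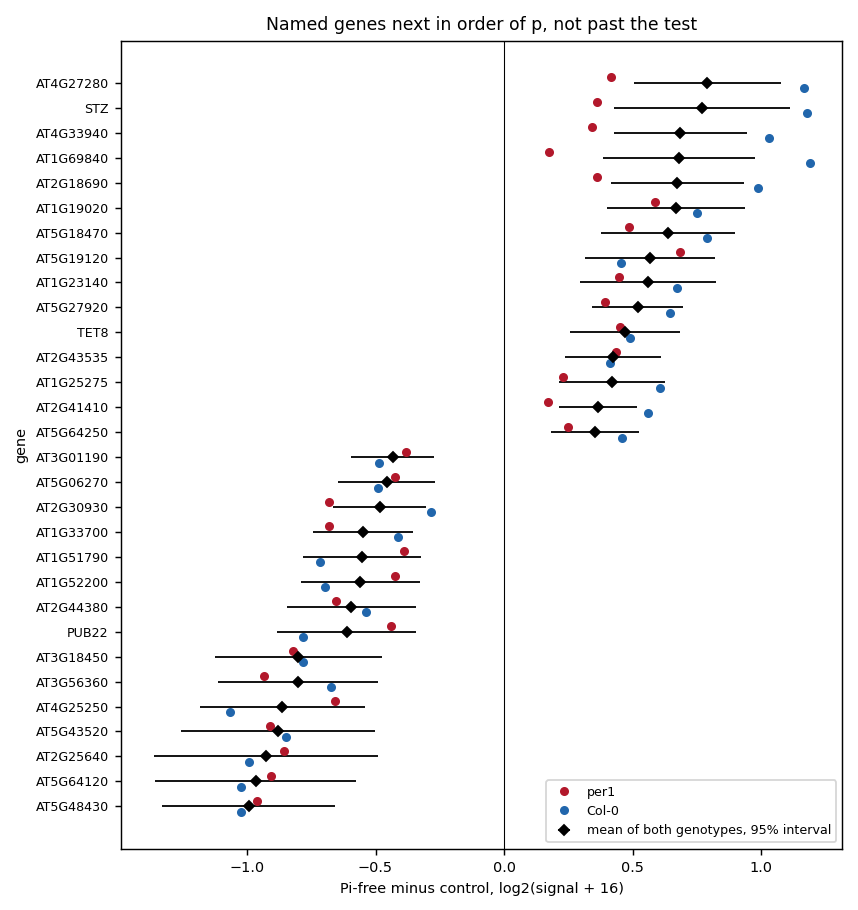
Pi-free minus control on the log2(signal + 16) scale for the 30 named genes next in order of p, none past the test. Black diamonds with bars are the mean of both genotypes with its 95% interval from limma, red points per1 and blue points Col-0; the estimates of both genotypes lie on the same side of 0 in all 30, as the naming rule requires, and are farthest apart for AT1G69840 at 0.17 and 1.19.

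The families of PRX69 and KIC were read as wholes, with lists that were set by locus after values had been seen. The families of the other called genes were not read here. The called gene of each family is included in its counts, so these describe the family and add no support. Of 73 class III peroxidases, 55 were measured, and 1 was called, PRX69. The median change was 0.04, where that of all probesets was 0.01. Within both genotypes 3 of the 55 were separated in the higher direction (5.45%, with 3.71% of all probesets) and 5 in the lower direction (9.09%, with 2.91% of all). At an unadjusted p under 0.05, 6 stood higher (10.9%) and 9 lower (16.4%), where 3.59% and 2.70% of all probesets did. PRX69 and PRX71 lie on chromosome 5 on either side of AT5G64110 (PRX70), whose signal of 3.2 to 66.1 over the 8 arrays showed no such separation, at 0.11. In the other direction PRX52, a peroxidase known from lignin formation, stood at 0.67 (limma, adjusted p 0.33). Those separated as lower were PRX27, PRX56, PRX63, PRX69 and PRX71, and those separated as higher were PRX25, PRX52 and PRX65.

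Of 52 EF-hand calcium sensors, 37 were measured and 1 was called, KIC, with a median change of 0.06. Within both genotypes 6 were separated as higher (16.2%, with 3.71% of all probesets) and 2 as lower (5.41%, with 2.91% of all). At an unadjusted p under 0.05, 7 stood higher (18.9%, with 3.59% of all). In the lower direction 1 did (2.70%), which equals the share of all probesets. AT3G47480 (CML47) had 25.4 and 46.3 on the per1 Pi-free arrays, against 2.9 and 3.0 on the per1 control arrays. In Col-0 it had 85.5 and 122.3 in Pi-free medium, against 0.7 and 29.4 in control medium. Its change of 1.76 ± 0.33 (SE, adjusted p from limma 0.12) thus rests on control signals near the pseudocount. AT5G39670 (CML45) stood at 0.99 and AT3G10190 (CML36) at 0.50. The 2 members separated as lower were AT1G24620 (CML25), at -0.46, and CML42, at -0.16.

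**Figure D4:**
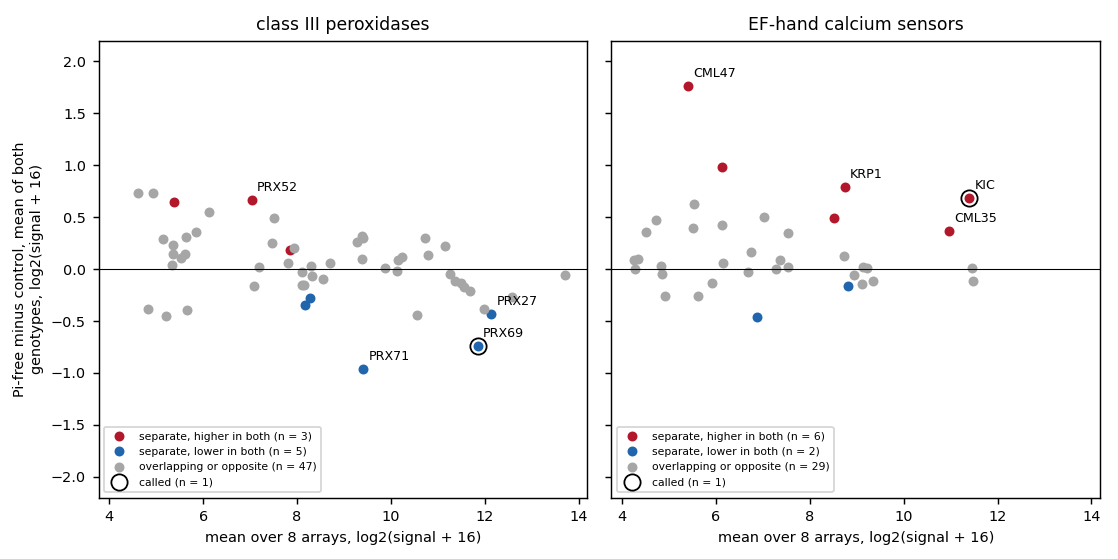
Change in Pi-free minus control medium, mean of both genotypes (y axis, log2(signal + 16)), against mean signal over the 8 arrays (x axis, the same scale) for 55 class III peroxidases on the left and 37 EF-hand calcium sensors on the right. Red and blue points are members whose Pi-free arrays lie above or below the control arrays within each genotype, grey points the others, and black rings the called genes; 3 peroxidases are red and 5 blue, and 6 calcium sensors are red and 2 blue.

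The known Pi pathway could be read only in part, since the annotation named few of its genes. Of 23 genes of Pi uptake and its regulation 3 were measured, with 0 called by limma and 0 at an unadjusted p under 0.05. SIZ1, a SUMO ligase that acts on PHR1, had 2 probesets, at -0.06 and -0.12. LPR1 and LPR2, the ferroxidases of the local Pi response of the root tip, stood at -0.0018 and 0.08. None of the 20 genes of phosphate scavenging and lipid remodelling had a named probeset, so they were not analysed here. Of 20 genes of iron deficiency and storage, PYE, a regulator of iron homeostasis, stood at 0.04, and BHLH101, a transcription factor of the same response, at 0.26. Neither was at an unadjusted p under 0.05, and the BHLH101 signals were weak, at 2.0 to 35.2. Of 13 root hair genes 4 were measured, with a median of -0.13, 0 called by limma and 1 lower at an unadjusted p under 0.05. AT4G26010 (PRX44) stood at -0.38, with -0.65 in per1 and -0.11 in Col-0, a difference that did not pass (adjusted p from limma 0.92). EXPA7 stood at -0.17, with -0.33 in per1 and -0.01 in Col-0. EXPA18 stood at -0.09 and SCN1 at 0.02. The Pi-free and control arrays of these 4 genes overlapped in at least 1 genotype except for EXPA18. It had 870 and 765 in per1 without Pi, against 1030 and 1031 in per1 on control medium. In Col-0 it had 1315 and 1370 without Pi, against 1272 and 1160 on control medium, so its estimates ran in opposite directions.

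The remaining lists, found by symbol patterns, held 0 genes called by limma each. At an unadjusted p under 0.05, 3.59% of all probesets stood higher and 2.70% lower. Of the expansin and xyloglucan endotransglucosylase genes 2 stood higher (6.90%) and 3 lower (10.3%), of the glutathione S-transferases 1 higher (7.14%) and 1 lower (7.14%), and of the cytochrome P450 list 1 higher (3.45%) and 1 lower (3.45%). There were 0 in the others. The 29 measured expansin and xyloglucan endotransglucosylase genes, which act on wall extension, had a median of 0.05, with 3 separated as higher (10.3%, with 3.71% of all) and 2 as lower (6.90%, with 2.91% of all). XTH21 stood at -0.32, EXLB1 at 0.30, EXPB1 at -0.31 and EXPA16 at 0.51, the last with weak signals of 9.3 to 42.0. The cytochrome P450 list held 29 probesets with a median of 0.01, of which 5 belong to cyclophilins with like names (SQN, CYP59, CYP71 and AT4G33060). The other 24 had a median of 0.03, with 1 higher and 0 lower at an unadjusted p under 0.05. CYP71B31 stood at 0.62, with signals of 2.0 to 20.5 near the pseudocount. The member at the lower end was SQN, with 1 probeset at -0.48 and signals of 1.0 to 19.0, and a brighter one at -0.20. Of 14 glutathione S-transferases, GSTU25 stood at 0.33 and GSTU26 at -0.23, with a list median of 0.10. The 7 measured WRKY factors had a median of 0.16, with WRKY22 at -0.40 and WRKY42 at 0.49. The WRKY42 signals were weak, at 2.6 to 39.0. The 12 auxin response genes had a median of -0.05, with GH3.17 at -0.19 and GH3.3 at 0.54. The 12 nitrate and related transporters had a median of -0.09, with AT3G25260 at 0.68, and the 2 heat shock entries one of 0.17. Of these, BRK1 encodes a regulator of actin assembly and not a heat shock protein, and stood at 0.23. The ethylene response factors, MYB factors and aquaporins had no named probeset and were not analysed here.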

How the data were processed

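RNA was measured on 8 Affymetrix ATH1 arrays. The deposited values are linear signal intensities per probeset. Every array had a 2% trimmed mean of 500.04 or 500.05, so the deposited intensities were already scaled. How probes were summarised and corrected for background is not given in the sources used here. Of 22810 probesets, 64 controls were left out. A single gene was annotated for 13513 probesets, several for 503 and none for 8730. Of the first, 13436 matched a TAIR10.1 locus, which gave current symbols.

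From log2(signal + 16), limma (version 3.58.1, R 4.3.3) estimated the 4 group means together, leaving 4 residual degrees of freedom, and moderated the variances along mean intensity. The Pi effect averaged over genotypes, that in each genotype and their difference are contrasts of these means. The procedure was tested on simulated data. The simulated spread depended on mean intensity alone, so the simulation could not test the intensity trend in the variance. The number of arrays limits the precision.

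Named were all called genes with the same sign in both genotypes, the next 15 genes per direction by p that were separated within both genotypes and above the median signal, up to 4 members of each list by p, and up to 4 unnamed probesets per direction. Other list members, BGLU25, AT5G64110 and 257823_at were picked after their values were seen. Members and lists were chosen with earlier results of these data known, and the peroxidases and calcium sensors were listed by locus after values were seen. Alternatives changed the pseudocount (1 or 64), the filter (a mean signal of at least 50), the normalization (quantile), the variance model, the replicate term, the interaction term and the arrays included.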

Additional observations from a re-analysis of the deposited data

Results flagged for a closer look

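For 2 of the 29 probesets called in the mean of both genotypes, the response differed between the genotypes by the interaction test over all probesets. For AT4G38410 the per1 response minus the Col-0 response was -2.18 ± 0.22 (SE, adjusted p from limma 0.030), with 0.23 in per1 and 2.41 in Col-0. For the unnamed 267083_at it was -2.66 ± 0.20 (SE, adjusted p from limma 0.0029), with 1.25 in per1 and 3.92 in Col-0. In control medium 267083_at had 692 and 626 in per1, against 147.9 and 114 in Col-0.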

How the results depend on the processing

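The counts of calls moved with the settings, while all 29 kept their direction in each. With a pseudocount of 1, limma called 39 probesets in the mean of both genotypes, 26 in Col-0 and 2 in per1. With 64 it called 24 in the mean and 1 for the difference between responses, and quantile normalization also gave 1 for that difference. With a mean signal of at least 50, it called 70 in the mean, 42 in Col-0 and 6 in per1, with fewer probesets tested. With robust variances it called 37 in the mean, 29 in Col-0 and 5 in per1. Without an intensity trend it called 2 in the mean, 1 in Col-0, 0 in per1 (1114 at an unadjusted p under 0.05) and 0 for the difference (1196). The labels do not say whether same-numbered samples share more than a number. Their deviations correlated at 0.002 to 0.077 between groups, which cannot decide it. The replicate number as a block was chosen as an alternative. It gave 49 calls in the mean, 31 in Col-0, 4 in per1 and 2 for the difference. An additive model called 20 in the mean, 18 of them among the 29. Leaving out 1 array at a time gave 2 to 27 calls in the mean, 3 to 4 in Col-0, 0 to 2 in per1 and 0 to 2 for the difference. The 0 in per1 came without its Pi-free array of replicate 2 (794 at an unadjusted p under 0.05), and the 0 for the difference without the per1 Pi-free array of replicate 1 (1009) or 2 (863). Of the values of the named genes, list members and called probesets (those with no gene included) under the alternatives, 1278 kept direction and side of the threshold, 206 lost the call, 45 gained it and 13 changed sign. The sign changes came only in list members far from the threshold when 1 array was left out, with ranges of -0.12 to 0.63 for BHLH101, -0.043 to 0.085 for SCN1, -0.047 to 0.25 for ATHSP22.0, -0.11 to 0.10 for LPR1, -0.0013 to 0.16 for LPR2 and -0.42 to 0.18 for the weaker SIZ1 probeset. The cause of these changes was not tested. With 2 arrays per group, weak signals such as CML47 are limited by background.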
